A study of Mus musculus with 2 samples.

Results

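The genes examined here are 10 genes of the cytotoxic effector program, chosen by symbol from the 48321 genes counted in RNA-seq libraries of mature thymocytes. They are the granzyme genes *Gzma*, *Gzmb*, *Gzmk* and *Gzmm*, the perforin gene *Prf1*, the granule genes *Nkg7* and *Srgn*, the death ligand gene *Fasl*, the cytokine gene *Ifng* and the chemokine gene *Ccl5*. All 10 were listed in both tables and had at least 10 counts. The cells came from MHC-II0:CD8ab Tg mice on a C57Bl/6 background, in 2 libraries numbered as replicates, and the age of the mice is not given in the labels. In these mice the I-Aβ chain, a part of MHC class II, is missing, and both copies of their own *Cd8* locus carry the *Cd8 Δab* mutation. CD8α and CD8β come instead from cDNAs in *Rosa26* that *Cd4-Cre* switches on, so the co-receptor is expressed constitutively. The study compared such cells with wild-type CD8 SP thymocytes to ask what kind of cell constitutive CD8 produces. Wild-type libraries were not analysed here, so the values below are levels in the transgenic cells and differences between the replicates.

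Cytotoxic lymphocytes kill through granules that hold perforin and granzymes, bound to the proteoglycan serglycin. Perforin opens a path into the target cell, and the granzymes, a family of serine proteases, then cleave proteins inside it. FasL acts apart from the granules by engaging Fas on the target, while IFN-γ and CCL5 are secreted to act on other cells. Conventional CD8 SP thymocytes are naive and carry little of this machinery, whereas innate memory-like CD8 T cells, NK cells and some iNKT cells express parts of it before any infection.

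The libraries held 16732644 and 16245849 counts on genes, and levels are given as CPM of these totals. The titles call the cells CD4-CD8- and the cell type field calls them CD8+, and the study's text calls them CD4- mature thymocytes and defines mature cells as CD24lo TCRβhi. *Cd4* was low, at 12 and 27 counts, and *Cd8b1* was high, at 775 and 786 CPM, with *Cd8a* at 158 and 171 CPM. Reads of the *Rosa26* cDNAs and of the mutated *Cd8* locus cannot be told apart in these counts. The CD8 levels therefore do not settle which label is right. *H2-Ab1*, which encodes the missing chain, still had 395 and 292 counts, and counts per gene cannot separate a disrupted allele from an intact one. The T-cell markers summed to 4309 and 4223 CPM. *Xist* had 34 and 25266 counts, and *Ddx3y* had 2450 and 0, so the replicates also differ in sex-linked genes, and sex cannot be told apart from any other difference between these libraries. These counts cannot come from 1 mouse sampled for both libraries, although the labels do not say how many mice each library holds.

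Reads of 50 bases were aligned by the authors and counted only where they had a single place, so the granzyme sequences were compared first. Over whole coding sequences, the 4 granzymes were 53.7% to 58.2% identical in pairwise alignments, and *Gzma* and *Gzmk*, which both lie on chromosome 13, were the closest pair. None of the 50-base windows of their transcripts (0%) occurred in a transcript of another gene in GENCODE M21. The stretches below start at the codons of the motif that holds the catalytic serine and are the part of the family where conservation is easiest to see. They are coding sequences of GRCm38 in exon 5 of each transcript, 30 bases long, with the serine codon in capitals.

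Gzma, chr13:113094021-113094050, minus strand: ggggatTCTggcagccctctgctatgtgat

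Gzmb, chr14:56259533-56259562, minus strand: ggggatTCTggaggcccgcttgtgtgtaaa

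Gzmk, chr13:113172006-113172035, minus strand: ggtgacTCTggtggccctttgatctgcaaa

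Gzmm, chr10:79694987-79695016, plus strand: ggtgacTCTggagggcccctggtgtgtggc

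The serine codon is TCT in all 4 genes. Even here, each pair of granzymes differed at 8 to 10 of the 30 bases, and no 50-base window that covers them occurs in a second gene.

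*Gzmb* encodes granzyme B, which cleaves after aspartate and activates caspases in the target cell, and it lies at chr14:56258838-56262260 on the minus strand. Its counts were 461 in replicate 1 and 331 in replicate 2, or 27.6 and 20.4 CPM. Replicate 1 was the higher, and the Wilson 95% intervals of 25.1 to 30.2 and 18.3 to 22.7 CPM did not overlap. The mean was 24.0 ± 5.07 CPM (SD, n = 2), the highest of the 4 granzymes. All such intervals reflect counting error alone, because the reads carry no molecular identifiers and need not stem from separate molecules.

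*Gzma* encodes granzyme A, a protease that cleaves after basic residues, and it lies at chr13:113093825-113100981 on the minus strand. Replicate 1 held 73 counts and replicate 2 held 237, or 4.36 and 14.6 CPM. The intervals of 3.47 to 5.48 and 12.8 to 16.6 CPM were far apart, with replicate 2 the higher. The mean of 9.48 ± 7.23 CPM (SD, n = 2) therefore describes neither library.

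*Gzmk* encodes granzyme K, another protease that cleaves after basic residues, from chr13:113171608-113225908 on the same strand as *Gzma*. It had 139 and 181 counts, or 8.31 and 11.1 CPM, with a mean of 9.72 ± 2.00 CPM (SD, n = 2). Replicate 2 was the higher, but the intervals of 7.04 to 9.81 and 9.63 to 12.9 CPM overlapped. *Gzmm* encodes granzyme M, which prefers methionine and leucine, and it lies at chr10:79689020-79695261. With 111 and 104 counts it stood at 6.63 and 6.40 CPM, and it was the steadiest granzyme between the libraries.

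*Prf1* encodes perforin and lies at chr10:61297833-61304680 on the plus strand. The libraries held 1781 and 2120 counts of it, or 106 and 130.5 CPM, and its mean was 118 ± 17.0 CPM (SD, n = 2). The intervals of 102 to 111 and 125 to 136 CPM did not overlap, and replicate 2 was the higher.

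*Nkg7* encodes a granule membrane protein that takes part in degranulation, and it lies at chr7:43437073-43438249. It was the most abundant of the 10 genes, with 6112 and 6346 counts, or 365 and 391 CPM. *Srgn* encodes serglycin, the core protein that binds granzymes inside the granule, and it lies at chr10:62493833-62527451. It had 3491 and 3176 counts, or 209 and 195 CPM. The libraries differed little in both genes, with means of 378 ± 17.9 CPM for *Nkg7* and 202 ± 9.29 CPM for *Srgn* (SD, n = 2). *Nkg7*, *Srgn* and *Prf1* together took 85.3% of the counts on the 10 genes in replicate 1 and 83.3% in replicate 2, and the 4 granzymes took 5.87% and 6.10%.

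*Fasl*, which encodes the ligand of the death receptor Fas, lies at chr1:161780689-161788495 and had 306 and 271 counts, or 18.3 and 16.7 CPM. Its intervals of 16.4 to 20.5 and 14.8 to 18.8 CPM overlapped. *Ifng*, which encodes IFN-γ, lies at chr10:118441046-118445892 and had 78 and 51 counts, or 4.66 and 3.14 CPM. Its mean was the lowest of the 10 genes, although *Gzma* was lower in replicate 1, at 4.36 CPM. In the GENCODE M21 annotation 336 bases of the *Ifng* exons overlap *Gm49751*, a symbol that the count tables do not list. *Ccl5* encodes a chemokine that attracts T cells and other leukocytes, and it lies at chr11:83525778-83530518. Its counts of 801 and 1156 corresponded to 47.9 and 71.2 CPM. Replicate 2 was the higher, and the intervals of 44.7 to 51.3 and 67.2 to 75.4 CPM did not overlap.

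**Figure D1:**
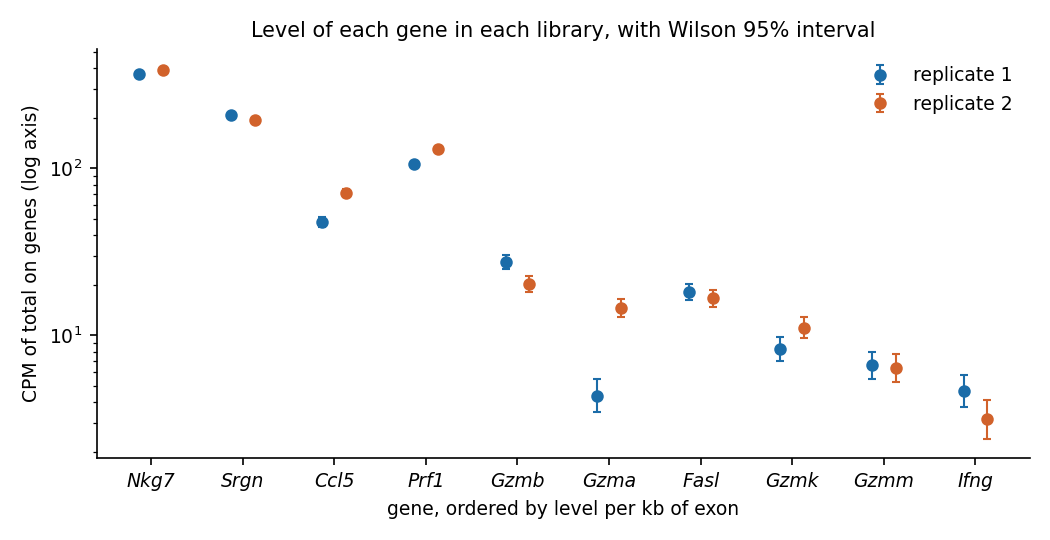
CPM of the total on genes (log axis) for each of the 10 genes, with replicate 1 in blue and replicate 2 in orange and bars for the Wilson 95% interval of each library. The genes run from *Nkg7* at 365 and 391 CPM to *Ifng* at 4.66 and 3.14 CPM, and *Gzma* has the widest gap between the libraries.

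Levels of different genes can be compared only per length, so CPM was divided by the kb of annotated exon. On this scale of CPM per kb, *Nkg7* was at 414 ± 19.6, *Srgn* at 92.0 ± 4.23, *Ccl5* at 62.0 ± 17.2 and *Prf1* at 45.8 ± 6.58 (SD, n = 2). They were followed by *Gzmb* at 16.7 ± 3.53, *Gzma* at 9.42 ± 7.19, *Fasl* at 9.03 ± 0.586, *Gzmm* at 4.43 ± 0.111 and *Ifng* at 3.01 ± 0.831 (SD, n = 2), and *Gzmk* lay between *Fasl* and *Gzmm* at 5.98 in replicate 1 and 8.02 in replicate 2. The range from *Nkg7* to *Ifng* was thus 137-fold. Of the 9 neighbouring pairs in this order, 6 did not overlap between their replicates. The ranges overlapped for *Ccl5* and *Prf1*, for *Gzmb* and *Gzma*, and for *Gzma* and *Fasl*, so these neighbours cannot be ordered. The range of *Gzma* also took in those of *Gzmk* and *Gzmm*, so *Gzma* cannot be ordered against these genes either. When the longest transcript replaced the union of exons, *Ccl5* and *Prf1* no longer overlapped and the order of the genes was the same. With 2 libraries, no exact test of such pairs can reach 0.05.

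Against all genes, 9 of the 10 genes lay above the median per length. *Nkg7* ranked 65 of the 15393 genes with a length and at least 10 counts, *Srgn* 370, *Ccl5* 593 and *Prf1* 879. The granzymes lay lower but above the median, with 81.5% of genes below *Gzmb*, 68.5% below *Gzma*, 61.3% below *Gzmk* and 51.3% below *Gzmm*. *Ifng* had 43.6% of genes below it and was the 1 member under the median of 4.15 CPM per kb. The median of the 10 genes was 13.1 CPM per kb.

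**Figure D2:**
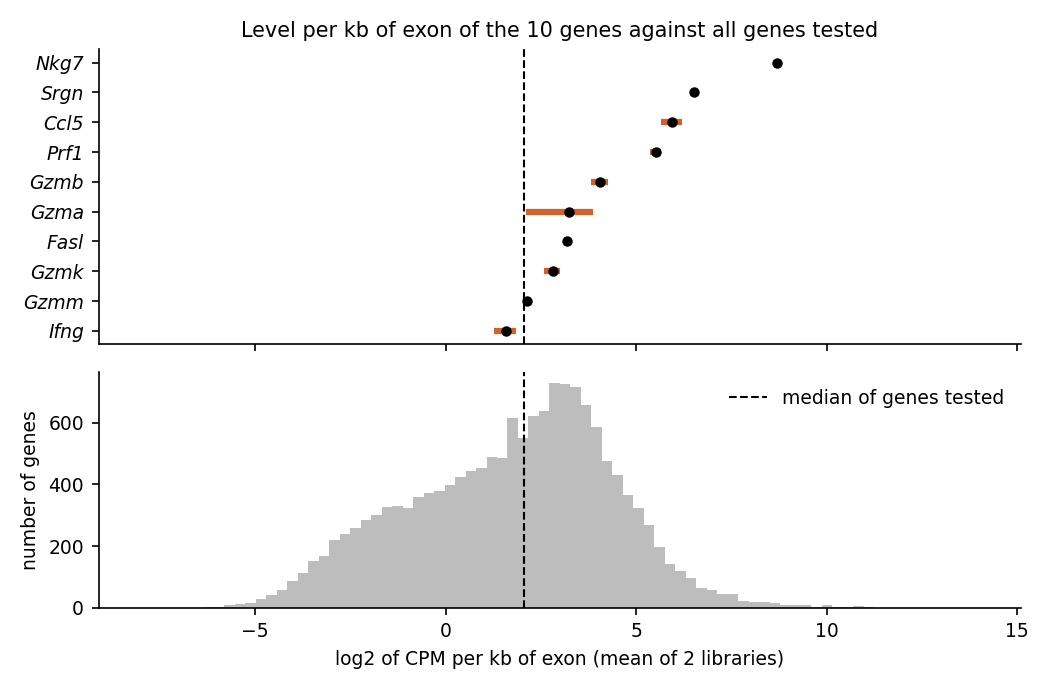
Above, log2 of CPM per kb of exon for each of the 10 genes, with a point for the mean and a bar from the lower to the higher library; below, a histogram of the same level for the genes tested, with a dashed line at their median. All but 1 of the genes lie to the right of the median and *Ifng* lies to its left, and the bar of *Gzma* is the longest.

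Shares within a library do not depend on its total, so the makeup of the granzymes was taken per kb. *Gzmb* made up 56.4% of the 4 granzymes in replicate 1 but 34.6% in replicate 2. *Gzma* made up 12.8% in replicate 1 and 35.3% in replicate 2, so granzyme A mRNA was the smallest part in one library and the largest in the other. Both places were close, to *Gzmm* at 13.3% in replicate 1 and to *Gzmb* at 34.6% in replicate 2, and neither gap was tested. *Gzmk* held 17.6% and 19.5%, and *Gzmm* held 13.3% and 10.6%. The level of *Gzmb* per kb was 4.42 times that of *Gzma* in replicate 1 and 0.978 times in replicate 2.

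The sum of the 4 granzymes was also set against perforin. Per kb it was 34.0 and 41.1 CPM, and its ratio to *Prf1* was 0.826 and 0.813, a difference that was not tested. Without *Gzma*, the summed CPM of the other granzymes was 42.5 in replicate 1 and 37.9 in replicate 2.

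**Figure D3:**
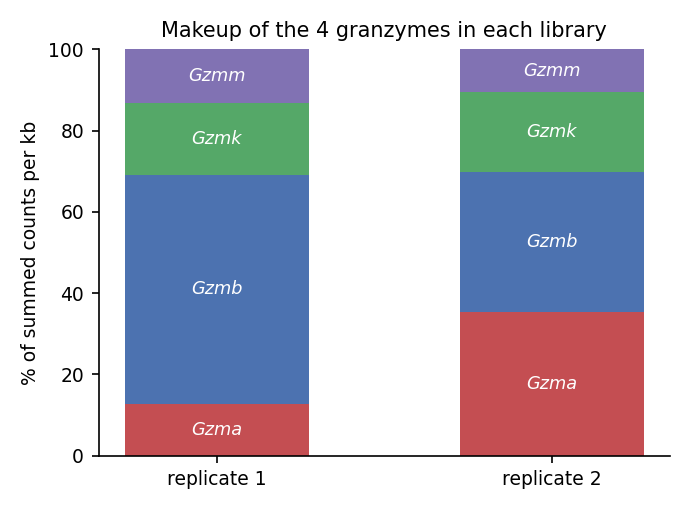
Stacked bars of the percent of the summed counts per kb of the 4 granzymes that each gene holds, for replicate 1 and replicate 2. *Gzma* goes from 12.8% to 35.3% and *Gzmb* from 56.4% to 34.6%, while *Gzmk* and *Gzmm* each stay between 10% and 20%.

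The replicates were then compared gene by gene with a two-sided exact binomial test of their counts, with Benjamini-Hochberg adjustment over all 15949 genes that had at least 10 counts. This test compares these libraries beyond counting error and not conditions. It called 5 of the 10 genes at an adjusted p under 0.05, against 16.3% of all genes tested, and 4 of the 5 were higher in replicate 2 (13.5% of all genes) and 1 in replicate 1 (2.82%). The split over all genes was 2146 higher in replicate 2 and 450 higher in replicate 1, but 824 and 859 with edgeR's TMM library sizes, so which library holds more of the calls depends on the scaling. Genes with few counts are harder to call, and they are part of the 16.3%. With a minimum of 100 counts, which all 10 genes reach, the test called 7 of them and 2622 of 10969 genes.

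*Gzma* was 3.34-fold higher in replicate 2 (95% interval 2.56 to 4.41; adjusted p from the exact binomial test, 1.69e-20). *Ccl5* was 1.49-fold higher (1.36 to 1.63; exact test, adjusted p = 3.82e-16) and *Prf1* 1.23-fold higher (1.15 to 1.31; exact test, adjusted p = 1.11e-08). *Gzmb* went the other way and was 1.35-fold higher in replicate 1 (exact test, adjusted p = 0.00046). The fifth call, *Nkg7*, was 1.07-fold higher in replicate 2 (exact test, adjusted p = 0.00246), and the call was lost with TMM or DESeq2 library sizes (adjusted p of 0.736 and 0.72) and without mitochondrial and ribosomal RNA genes in the totals (adjusted p = 0.375). *Srgn* lay at the threshold with a log2 ratio of -0.09 (exact test, adjusted p = 0.05004), and it was called higher in replicate 1 under the same 3 scalings.

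*Gzmk* had a log2 ratio of 0.42 (95% interval 0.10 to 0.75; exact test, adjusted p = 0.0584), and it was called only with a minimum of 100 counts (adjusted p = 0.0436). *Ifng* had a log2 ratio of -0.57 (95% interval -1.11 to -0.04) and was not called after adjustment (exact test, adjusted p = 0.122). *Fasl* and *Gzmm* had log2 ratios of -0.13 and -0.05, with intervals from -0.37 to 0.11 and from -0.45 to 0.35, and a difference in either was not detectable at this depth. The median absolute log2 ratio of the 10 genes was 0.36, beside 0.17 for all genes tested.

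With a difference of at least 2-fold also required, 1 of the 10 genes was called, *Gzma*, against 1.52% of all genes, or 0.94% higher in replicate 2. When the spread between libraries was added to the counting error, in edgeR's exact test with the common dispersion of these libraries (biological coefficient of variation 0.105), *Gzma* was again the 1 member called (FDR = 1.66e-06), against 0.42% of all genes, 0.232% higher in replicate 2 and 0.188% in replicate 1. At an unadjusted p under 0.05 that test held 2 of the 10 genes, *Gzma* and *Ccl5*, and 4.88% of all genes. *Ccl5*, *Prf1*, *Gzmb* and *Nkg7* were not called by that test, with an FDR of 0.566 for *Ccl5* and of 1 for the other 3. *Gzma* ranked 14 of all genes by its p in that test, and of the 10969 genes with at least 100 counts, 16 had an absolute log2 ratio as large as its 1.74.

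**Figure D4:**
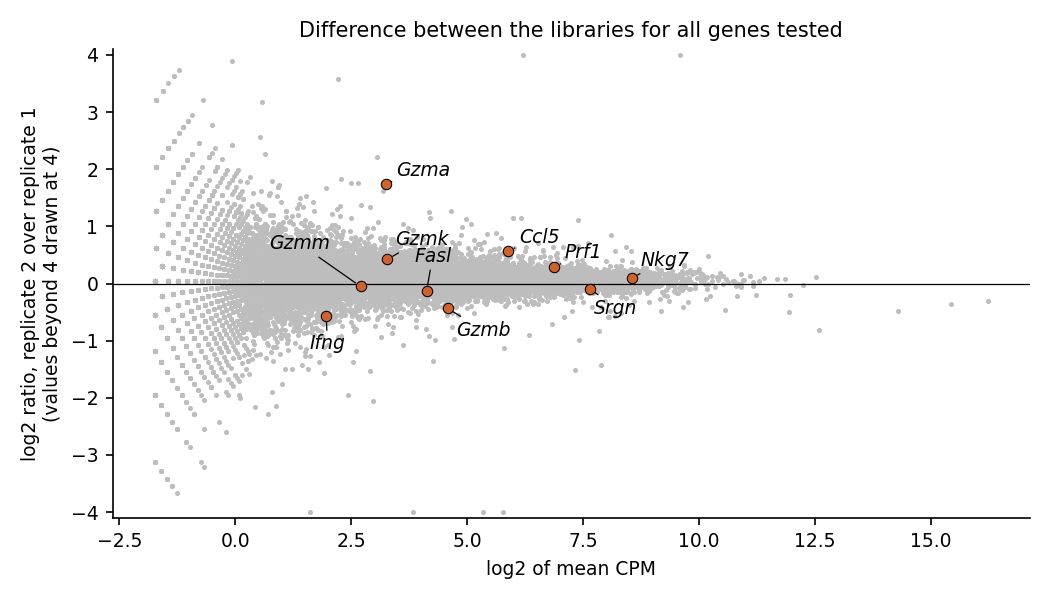
Log2 ratio of replicate 2 over replicate 1 against log2 of the mean CPM for the genes tested, with the 10 genes in orange; 15 genes with 0 counts in 1 library are not drawn and 6 genes lie at the edges. *Gzma*, at a log2 ratio of 1.74, stands above the cloud at its level, and the other 9 genes lie between -0.57 and 0.57.

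Genes that control effector genes were measured beside them. *Tcf7*, which encodes TCF-1, had the highest level per length of the 12 regulators, at 317 CPM per kb, and *Zeb2* the lowest, at 0.0747 CPM per kb. *Eomes*, a T-box factor of innate memory-like CD8 T cells, had 3275 and 5760 counts. It was higher in replicate 2, with a log2 ratio of 0.86, and was called by the exact binomial test and by edgeR (FDR = 0.0253). The related *Tbx21*, which encodes T-bet, had 462 and 493 counts and was not called (exact test, adjusted p = 0.362). *Runx3*, a central factor of the cytotoxic lineage, was called higher in replicate 2 by the exact binomial test with a log2 ratio of 0.14, as was *Stat4* with 0.58. *Bach2*, a repressor of effector differentiation, and *Tcf7* were called higher in replicate 1 with log2 ratios of -0.32 and -0.06. In all, 5 of the 12 regulators were called, 3 higher in replicate 2 and 2 in replicate 1, beside 13.5% and 2.82% of all genes, and edgeR called *Eomes* alone, beside 0.42% of all genes.

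T-box factors such as Eomes and T-bet and the Runx factors are known regulators of effector genes, so the promoters of the 10 genes were searched for their motifs. RefSeq promoter windows of GRCm38.p6, from 250 bases before the start to 50 after, were found for 9 of the 10 genes, in 11 windows; *Ccl5* had none. The motifs, searched on both strands, were the T-box half-site AGGTGTGA, its core AGGTGT, which the longer form contains, and the Runx motif TGTGGT. The 250 bases before the start of *Gzma* and *Gzmb* follow, with matches to the core or the Runx motif in capitals. They are shown because the binomial test called these granzymes in opposite directions between the libraries, while edgeR called *Gzma* but not *Gzmb*. A link between the matches and the difference between the libraries was not tested. Each of these granzymes had a single window.

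Gzma, chr13:113100982-113101231, minus strand: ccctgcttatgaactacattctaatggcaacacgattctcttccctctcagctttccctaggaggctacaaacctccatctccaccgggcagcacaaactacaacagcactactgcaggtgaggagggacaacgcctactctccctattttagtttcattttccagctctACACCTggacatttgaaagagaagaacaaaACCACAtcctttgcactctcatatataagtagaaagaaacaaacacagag

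Gzmb, chr14:56262335-56262584, minus strand: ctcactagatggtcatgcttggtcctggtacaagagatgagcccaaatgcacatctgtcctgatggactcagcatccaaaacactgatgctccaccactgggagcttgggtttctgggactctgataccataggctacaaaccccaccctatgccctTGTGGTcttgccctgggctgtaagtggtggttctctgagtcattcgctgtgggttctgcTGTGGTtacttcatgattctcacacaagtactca

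The *Gzma* window holds the T-box core 80 bases before the start, on the opposite strand, and a Runx match 50 bases before it. The *Gzmb* window holds Runx matches 93 and 34 bases before the start and no T-box core. The core was also found in the windows of *Gzmk*, *Nkg7* and *Prf1*, in 4 of the 9 genes in all, beside 13.7% of the 32851 promoter windows. The Runx motif was found in 6 of the 9 genes, *Gzma*, *Gzmb*, *Gzmm*, *Nkg7*, *Prf1* and *Srgn*, beside 16.8% of all windows. The full half-site was found in *Nkg7* alone, beside 1.28% of all windows. These matches describe sequence and not binding, and genes with more than 1 window have more places for a match. The core matches nearest to a RefSeq start were those of *Nkg7*, 14 bases before it, and *Prf1*, 24 bases before it, shown with the core in capitals. The RefSeq start of *Nkg7* lies inside the GENCODE span given above, so its stretch does too.

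Nkg7, chr7:43437112-43437141, plus strand: agggggtagggaAGGTGTgagaagaatcag

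Prf1, chr10:61297800-61297829, plus strand: cattgacaacgcAGGTGTccccctgggctt

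Other genes of the granule pathway were then taken from a list. Of the 6 other granzymes, *Gzmd*, *Gzme*, *Gzmg* and *Gzmn* had 0 counts in both libraries, where 3 counts would be 0.179 and 0.185 CPM. *Gzmf* had 0 and 1 counts, and *Gzmc* had 7 and 13. These genes are close copies of each other, and reads that align to several places were not counted, so their counts are uncertain.

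Of 18 genes that activate, store and release granule proteins, 17 were listed and 16 had enough counts to be tested. *Ctsw*, which encodes the cysteine protease cathepsin W of cytotoxic lymphocytes, was the highest per length, at 306 CPM per kb, from 9619 and 9436 counts. *Cd63*, a granule membrane gene, was the lowest, with 2 and 1 counts. The binomial test called 8 of the 16, 5 higher in replicate 2 and 3 in replicate 1, beside 16.3% of all genes, and edgeR called none of them.

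*Lyst*, the lysosomal trafficking regulator, had 4514 and 6795 counts and a log2 ratio of 0.63. *Serpinb9*, which encodes an inhibitor of granzyme B, and *Serpinb6b* were higher in replicate 2 with log2 ratios of 0.40 and 0.46, as were *Unc13d*, which primes granules for fusion, with 0.16 and *Lamp1* with 0.15. *Ctsc*, whose product cathepsin C activates granzymes, *Lamp2* and *Sytl3* were higher in replicate 1 with log2 ratios of -0.15, -0.21 and -0.55. Call by call, these genes thus did not share a direction.

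In the death receptor pathway, *Ltb*, which encodes lymphotoxin β, was the highest per length of the 12 genes, at 267 CPM per kb, and *Tnfrsf10b* the lowest, at 1.08 CPM per kb. *Fas* itself, the receptor for FasL, had 289 and 304 counts and was not called. The test called 2 of the 12, *Ltb* and *Casp8*, both higher in replicate 1 with log2 ratios of -0.07 and -0.12, and edgeR called none. This share of the list is close to the 16.3% of all genes called in either direction, while 2.82% of all genes were called higher in replicate 1.

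Among other effector cytokines and chemokines, *Xcl1*, a chemokine gene of CD8 T cells and NK cells, was the highest at 45.1 CPM per kb, from 344 and 432 counts. It was the 1 gene of the 7 tested that was called, higher in replicate 2 with a log2 ratio of 0.37, a share of the list close to the 13.5% of all genes, and edgeR called none. *Il10* and *Il17a* had 0 counts in both libraries. *Il4*, the cytokine that drives innate memory-like CD8 T cells, had 11 and 7 counts, and *Il2* had 3 and 1.

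Of the receptors for IFN-γ, *Ifngr1* was at 79.5 CPM per kb. *Ifngr1* and *Ifngr2*, which encode the chains of the receptor, were called in opposite directions by the binomial test, with log2 ratios of 0.12 and -0.55. Of all genes, 13.5% were called higher in replicate 2 and 2.82% higher in replicate 1, and edgeR called neither chain. With TMM library sizes every log2 ratio shifts by -0.077, and the call of *Ifngr1* is given with the totals on genes only.

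Markers of other cells that express effector genes were read in the same libraries. The 7 NK-cell markers summed to 237 CPM in replicate 1 and 413 CPM in replicate 2, and without *Eomes*, which the regulators also hold, to 40.8 and 58.6 CPM. *Ncr1*, which encodes NKp46, had 45 and 112 counts, *Tyrobp* had 29 and 76, and *Klra8* had 24 and 58, with log2 ratios of 1.36, 1.43 and 1.32. *Klrb1c* and *Klre1* were also higher in replicate 2, with 0.31 and 0.43, and *Fcgr3*, with 44 and 36 counts, was not called. The test thus called 6 of the 7 markers, all higher in replicate 2, beside 13.5% of all genes, and edgeR called *Eomes*, *Ncr1* and *Tyrobp*, beside 0.232% of all genes higher in replicate 2. No NK marker was at 0, and the part of NK-like cells in the level of *Gzma*, *Ccl5* or *Prf1* was not tested. In bulk RNA, fewer cells of a type and less RNA per cell cannot be told apart.

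Of the 10 T-cell markers the binomial test called 6, beside 16.3% of all genes, and edgeR called none. *Cd3e*, *Cd3g*, *Trac* and *Cd5* were higher in replicate 1, with log2 ratios of -0.15, -0.15, -0.12 and -0.20, beside 2.82% of all genes. *Thy1* and *Cd8a* were higher in replicate 2, with 0.09 and 0.12, beside 13.5% of all genes. Outside the T-cell and NK-cell lists, no marker was called between the libraries. The 7 markers of γδ T cells were among them, and they summed to 56.4 and 54.2 CPM. The platelet markers summed to 5.32 and 4.80 CPM, with 0 counts of *Pf4* and *Ppbp* in both libraries, 62 and 44 of *Gp1ba* and 26 and 34 of *Itga2b*. The mast cell and basophil markers summed to 9.80 and 8.19 CPM, with 0 counts of *Fcer1a*, *Mcpt4* and *Mcpt8*, 157 and 130 of *Kit* and 5 and 1 of *Cpa3*. The part of such cells in the levels of the 10 genes was not tested. Of the 8 myeloid markers, *Cd14* and *Elane* had 0 counts, and the sum was 66.6 and 65.7 CPM, most of it from *Cst3*. The B-cell markers summed to 146 and 151 CPM, mainly from *Ighm*. Double-positive thymocyte markers summed to 16.3 and 17.2 CPM, those of the CD4 lineage and Treg cells to 28.2 and 32.1 CPM, those of thymic epithelium to 3.71 and 4.19 CPM and those of erythroid cells to 0.478 and 0.616 CPM. *Zbtb16*, the PLZF gene that iNKT cells express and 1 of the regulators, had 305 and 351 counts and was not called.

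**Figure D5:**
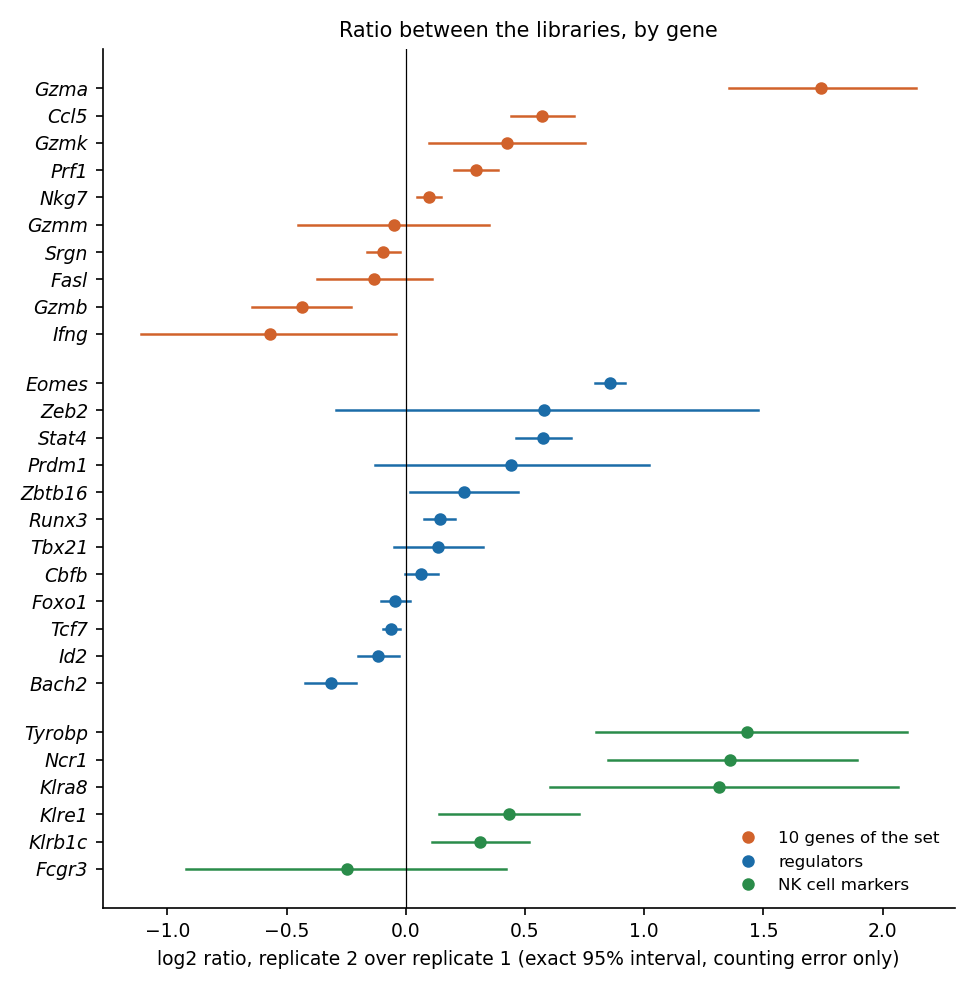
Log2 ratio of replicate 2 over replicate 1 with its exact 95% interval (counting error only) for the 10 genes in orange, the regulators in blue and the NK-cell markers other than *Eomes* in green. *Gzma*, *Tyrobp*, *Ncr1*, *Klra8* and *Eomes* lie farthest to the right, at 1.74, 1.43, 1.36, 1.32 and 0.86, and *Ifng* lies farthest to the left, at -0.57.

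The genes most like each member were those nearest in log2(CPM + 1) of replicate 1 and replicate 2, as a distance over 2 libraries, with list genes left out. For *Gzma* this was *Klk1b22*, with 75 and 225 counts at a distance of 0.0769, and no other gene lay within 0.1. For *Ccl5* it was *Hs6st1*, with 811 and 1079 counts at 0.0996, again the 1 gene within 0.1. The levels of *Gzmk* and *Gzmm* were shared exactly by *Fbxw10* and *Alg6*, and 33 and 65 genes lay within 0.1 of them. The nearest genes to the rest were *Gm11707* for *Gzmb*, *Heca* for *Prf1*, *Srsf2* for *Nkg7*, *Srsf7* for *Srgn*, *C530008M17Rik* for *Ifng* and *Tesk2* for *Fasl*. With 2 libraries, such likeness reflects level and a single ratio.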

How the data were processed

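RNA was extracted by the authors from sorted cells of 1 genotype, and poly(A) libraries were read as single-end 50-bp reads. Per the labels and the study's methods, the reads were mapped with TopHat2 2.1.1 onto mm10 and counted with HTSeq 0.6.1. The deposited values are raw read counts per gene, without normalization; the annotation and strand setting are not given in the sources used here.

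CPM was computed over the totals on genes, leaving out the closing lines of HTSeq. Reads assigned to no gene were 55.9% of the uniquely aligned reads in both libraries, and ambiguous reads 3.52% and 2.92%. Of the 48321 symbols, 46394 were found in GENCODE M21 (GRCm38), which gave lengths and positions. Wilson and exact intervals are at 95%, and the limit that a count of 0 allows was taken as 3 counts. The binomial test used scipy 1.17.1 and statsmodels 0.14.6, and the alternatives edgeR 4.0.16 and DESeq2 1.42.0. The tests were also run on simulated counts with known changes, and the outcome is not given here. Alternatives were other library sizes, minimum counts, lengths and tests, and each replicate left out.

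The genes and lists were chosen with earlier results of these data known. Named are the 10 genes, the genes altered in the mice, the highest and lowest gene per length and every called gene of each list, and the nearest gene to each of the 10; other genes named from the lists, *Xist* and *Ddx3y* were chosen after their values were seen. Some genes of the lists are not reported here.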

Additional observations from a re-analysis of the deposited data

How the results depend on the processing

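Without the 393 mitochondrial and ribosomal RNA genes in the totals, the levels rose by more than 1 SD for *Nkg7* (441 CPM), *Srgn* (236), *Prf1* (138), *Fasl* (20.4) and *Gzmm* (7.61), since the totals became smaller. With the longest transcript as length, *Srgn* (117 CPM per kb), *Ccl5* (89.1) and *Gzmm* (5.06) moved by more than 1 SD, and the granzyme shares did not. The number of genes called was 1683 with TMM and 1684 with DESeq2 library sizes, against 2596, and 67 with edgeR's exact test, which called 1 of the 10 genes, *Gzma*. With at least 2-fold required, 242 genes became 55 with a minimum of 100 counts and 56 with edgeR. The call of *Gzma* held in all 6 alternatives, and those of *Gzmb*, *Prf1* and *Ccl5* were lost with edgeR alone. No log2 ratio of the 10 genes changed sign under any alternative run. TMM and DESeq2 library sizes shift every log2 ratio by -0.077 and -0.076, toward replicate 1. Calls of genes outside the 10 are given only with the totals on genes, so small ratios among them depend on this scaling. Leaving out either replicate gives the value of the other, as from 4.36 to 14.6 CPM for *Gzma*, and its distance from the mean is by construction under 1 SD. No paired analysis was possible because the labels give a single group, so the replicate numbers pair no samples across groups. The edgeR dispersion comes from the same 2 libraries that it compares.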
